A study of Mus musculus with 16 samples.

Results

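Major histocompatibility complex (MHC) class II molecules display peptides from endosomes to CD4+ T cells. The genes described here are the 7 listed under their mouse symbols H2-Aa, H2-Ab1, H2-Eb1, Cd74, Ciita, H2-DMa and H2-DMb1, each of which had a row in both deposited tables, out of 24420 rows in each table. H2-Aa and H2-Ab1 encode the alpha and beta chains of the I-A molecule, and H2-Eb1 encodes the beta chain of I-E. Cd74 is the invariant chain that guides new class II molecules to endosomes and blocks their groove, and H2-DMa and H2-DMb1 form the DM molecule that exchanges the invariant chain remnant for antigenic peptide. Ciita is the coactivator that switches the other genes on: it does not bind DNA itself but is recruited by RFX, CREB and NF-Y factors bound to the X and Y boxes of class II promoters. Professional antigen-presenting cells express class II genes constitutively, and small intestinal epithelium is known to express them too, with interferon gamma as the best-known inducer. The 7 genes were picked because they were higher in Mfge8 null enterocytes in these same data, so their values in that comparison are given as a description and without a test.

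Libraries of 3' tags, in which each RNA molecule is read close to its poly(A) tail, were made from mice of strain C57B6 per the labels. Of the 16 libraries, 9 came from isolated enterocytes, 4 of them WT and 5 with the genotype Mfge8 KO (called null here), and 7 came from intestine, 4 WT and 3 with the genotype Cd36 KO. Age, sex, diet, the deleted part of either gene and the number of mice behind a library were not given in the labels, so any p-value covers the spread between libraries, which may be technical. The depth was 1618369 to 2459812 gene-assigned reads in an enterocyte library and 850297 to 1000694 in an intestine library. Levels are normalised reads, in which the read count of a gene was scaled by the size factor of its library, and the tables were normalised separately.

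The targeted genes were lower in the null groups on average, with Mfge8 in null 4 close to WT 4. Mfge8 was at 23.4, 11.4, 16.5 and 7.94 normalised reads in WT enterocytes 1 to 4, and at 3.92, 2.19, 1.998, 7.495 and 1.64 in null enterocytes 1 to 5. Cd36 was at 111 to 116 in the WT and at 6.48 to 15.97 in the Cd36 null intestine libraries. Enterocyte markers such as Vil1, Fabp2 and Epcam were abundant in all 16 libraries, and the summed level of 11 such markers ran from 53447 to 87059 in enterocyte libraries. Stromal and muscle markers were scarce in the libraries labelled intestine, where the sum of 10 such genes was 37.3 to 71.7 and the muscle genes Acta2, Des and Myh11 lay between 0 and 1.81. All 7 intestine libraries also held reads of both the female-specific Xist and the Y-linked Ddx3y. Libraries of the same genotype in the intestine table differed by about the counting noise, with chi-square over its degrees of freedom at 0.987 to 1.117 for a pair, against 6.26 to 20.2 in the enterocyte table. They were therefore counted as 1 sample per genotype, and that comparison has no replicate check.

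Of the 7 genes, 5 lie within 197 kb of chromosome 17 on mm10, from H2-DMa (34119541 to 34139101) over H2-DMb1 (34153072 to 34160230), H2-Ab1 (34257689 to 34269419) and H2-Aa (34282744 to 34287823, minus strand) to H2-Eb1 (34305867 to 34316674). Ciita and Cd74 lie on other chromosomes. The RefSeq promoter table (GRCm38.p6) held 5 windows for 4 of the genes, and 3 of these genes carried the half-site GNAAC of the X box followed on the same strand, after 20 to 30 bases, by the Y box core GATTGG within 250 bases before the RefSeq start. The gene spans given above are those of GENCODE, whose outermost start can differ from the RefSeq start: for H2-DMb1 the GENCODE start lies upstream of the boxes. The X and Y box pair is shown because it is the docking site through which Ciita acts on several promoters at once. In the sequences that follow, read 5′ to 3′, capitals mark the X half-site and the Y box core:
H2-Aa, chr17:34287857-34287914, minus strand: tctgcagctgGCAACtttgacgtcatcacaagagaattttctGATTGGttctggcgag
H2-Eb1, chr17:34305766-34305822, plus strand: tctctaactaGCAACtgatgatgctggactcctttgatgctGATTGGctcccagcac
H2-DMb1, chr17:34153087-34153144, plus strand: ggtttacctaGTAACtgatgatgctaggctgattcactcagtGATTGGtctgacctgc
H2-Ob, chr17:34238808-34238862, plus strand: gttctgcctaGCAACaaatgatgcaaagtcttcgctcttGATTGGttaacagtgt
H2-Eb2, chr17:34325533-34325589, plus strand: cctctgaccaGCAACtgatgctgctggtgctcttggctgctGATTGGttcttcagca

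The first 3 sequences belong to the genes described here, and the last 2 to neighbours of the same family that were barely read in these libraries. The boxes were 27 bases apart in H2-Aa and H2-DMb1, 26 in H2-Eb1 and H2-Eb2 and 24 in H2-Ob, and the Y box core ended 43 to 95 bases before the RefSeq start. Searched on both strands, the pair was present in 181 of 32851 promoter windows (0.551%), while GATTGG alone was in 14.6% and GNAAC alone in 79.6%; the spacing was set after these sequences had been read. Neither window of H2-DMa held the pair, and the windows of H2-Ab1, Cd74 and Ciita were not used here. H2-Oa, a chain of the DO molecule that restrains DM, also held the pair, with 27 bases between the boxes.

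In Mfge8 null enterocytes all 7 genes were higher than in WT enterocytes, by 2.50 to 3.21 on the log2 scale of value + 1, with a median of 2.67 against 0.001 over the 9432 genes tested. The lowest null library lay above the highest WT library for 7 of 7, which held for 3.35% of all genes tested, with 3.07% the other way. Genes past a limma adjusted p of 0.05 made up 1.58% of the 9432 as higher and 1.63% as lower in null enterocytes, that is 149 and 154 genes, or 110 and 212 after scaling to CPM (counts scaled to a common library total). Since the genes were chosen from this comparison, nothing is read from these shares.

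H2-Aa was at 91.2, 249.5, 129 and 233 normalised reads in WT libraries 1 to 4 and at 1148, 2008, 1582, 1069 and 1984 in null libraries 1 to 5. The lowest null library was 4.28 times the highest WT library. Its partner chain H2-Ab1 was at 109, 286, 185 and 289 in WT and at 976, 1376, 1059.8, 981 and 1430.4 in null libraries. H2-Aa thus had the larger change of the I-A chains, with a log2 change of 3.21 (SE 0.27) against 2.50 (SE 0.24) for H2-Ab1. H2-Eb1, the I-E beta chain, was at 56.1, 131, 83.1 and 151 in WT and at 559, 809, 666, 482 and 669 in null libraries. The b haplotype of C57BL/6 mice is known to make no I-E alpha chain, and H2-Ea-ps, its locus, was listed at 0 in all 16 libraries.

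The invariant chain Cd74 (chromosome 18, 60803848 to 60812652) was at 19.9, 80.1, 33.7 and 81.4 in WT and at 413, 555, 399.5, 311 and 527 in null libraries, a log2 change of 3.21 (SE 0.33). WT libraries 1 and 3 were low and WT libraries 2 and 4 high, the same division as for the I-A and I-E chains. H2-DMa was at 19.9, 18.7, 6.27 and 14.9 in WT and at 82.3, 115, 73.9, 66.4 and 91.0 in null libraries. H2-DMb1, the DM beta chain, was at 31.6, 78.0, 43.1 and 139.98 in WT and at 564, 588, 403, 575 and 528 in null libraries. H2-DMa departed from the shared WT order, since its lowest WT library was WT 3 and its highest WT 1. H2-DMb2, a close copy of H2-DMb1, was listed at 0 in all 16 libraries; in the last 100 bases of the longest annotated transcripts 88 of 99 aligned bases were identical, so the value of H2-DMb1 is uncertain to the extent that reads could fall on either copy. H2-DMa overlaps the start of Brd2 on the other strand, and Brd2 was at 849 ± 85.1 in WT and 855 ± 40.4 in null libraries (SD, n = 4 and 5).

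Ciita (chromosome 16, 10480059 to 10528418) was the least read of the 7, at 2.34, 6.24, 6.27 and 6.95 normalised reads in WT and 49.95, 38.4, 31.96, 31.1 and 25.4 in null libraries. These values rest on 2 to 8 reads per WT library and 29 to 51 per null library. The log2 change was 2.54 (SE 0.32), and it was 1.95 with a pseudocount of 5. The order of the null libraries differed from that of its target genes: Ciita was highest in null 1 and lowest in null 5, while null 2 was highest for 5 of the 7 genes. Among WT libraries, WT 1 was lowest for 6 of the 7 genes and WT 4 highest for 5. Ciita shares its 3' region with Dexi on the other strand, and the strand setting of the counting was not given in the sources used here. Dexi had a mean of 43.9 normalised reads in the enterocyte libraries, above every WT value of Ciita. Its level by genotype is not given here, so the part of Dexi reads in the Ciita values is not known. The genes also varied more among WT than among null libraries, with coefficients of variation of 38.5% to 66.6% in WT and 14.2% to 28.6% in null enterocytes. WT values rest on fewer reads, so counting noise weighs more on their spread, most of all for Ciita, and its part was not taken out.

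**Figure D1:**
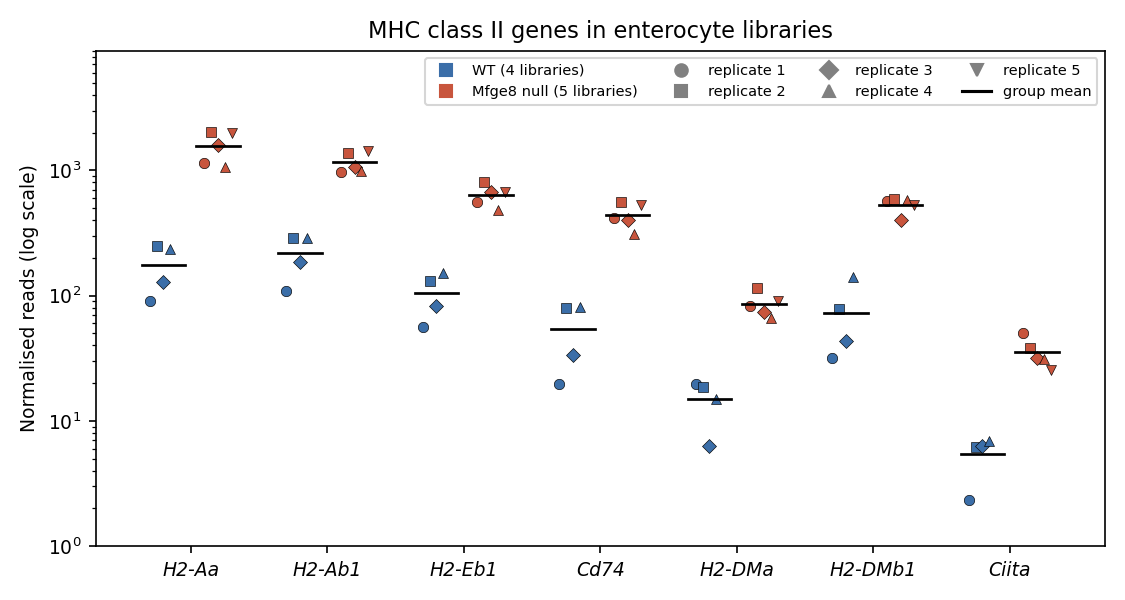
Normalised reads of the 7 class II genes (log scale) in each enterocyte library, WT in blue and Mfge8 null in red, with marker shapes for the replicate number and bars for the group mean. Every null library lies above every WT library for each gene, and WT libraries spread more than null libraries, on fewer reads per gene.

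Proportions among the class II transcripts were described by ratios of normalised reads within a library, in which the size factor cancels. Some of these ratios overlapped between the genotypes and some did not. H2-Aa per H2-Ab1 was 0.699 to 0.873 in WT and 1.09 to 1.49 in null enterocytes, without overlap. Cd74 per H2-Ab1 was 0.182 to 0.282 in WT and 0.317 to 0.424 in null enterocytes, again without overlap. H2-Eb1 per H2-Ab1 overlapped, at 0.449 to 0.522 and 0.468 to 0.629, as did H2-DMb1 per H2-DMa, at 1.59 to 9.40 and 5.10 to 8.66. H2-DMb1 per H2-Ab1 (0.233 to 0.485 and 0.369 to 0.586) and H2-DMa per H2-Ab1 (0.0339 to 0.183 and 0.0636 to 0.0843) overlapped too. The share of other gene pairs without overlap is not given here. These ratios come from the same comparison that chose the genes and were not tested.

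None of the other class II pathway genes tested passed the test. By limma 0 of 17 passed in either direction, where 3.21% of all genes passed, 2 had an unadjusted p under 0.05, both lower in null, and edgeR and DESeq2 also called 0. The 7 promoter factors tested had log2 changes of -0.72 to 0.40 (median 0.05). Rfx5, the DNA-binding subunit of the RFX complex, was at 9.90 ± 4.94 in WT and 12.5 ± 3.86 in null enterocytes, and Rfxap, another RFX subunit, was at 22.6 ± 4.55 and 13.8 ± 4.55 (SD, n = 4 and 5; limma adjusted p = 0.687 and 0.248). The 9 endosomal processing genes tested had log2 changes of -0.43 to 0.24 (median -0.01). Ctss, the cathepsin that trims the invariant chain, was at 713 ± 141 in WT and 755 ± 91.9 in null enterocytes, and Ifi30, the thiol reductase that unfolds antigens, was at 232 ± 44.8 and 173 ± 33.0 (limma adjusted p = 0.832 and 0.240). The DO chains H2-Oa and H2-Ob, H2-Eb2 and the co-stimulatory genes Cd80, Cd86 and Cd40 had too few reads to be tested.

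Of the 9 tested genes of interferon gamma signalling none passed by limma, which passed 3.21% of all genes, and edgeR and DESeq2 called 0. At that share, lists as short as those in this paragraph would hold few calls or none. None passing therefore does not show that their genes were unchanged. Only Socs1, a feedback inhibitor of the pathway, had an unadjusted p under 0.05, at 27.6 ± 9.94 in WT and 48.99 ± 7.40 in null enterocytes (limma adjusted p = 0.0927). Irf1, a transcription factor through which the signal is known to reach the Ciita gene, was at 701 ± 131 in WT and 622 ± 39.97 in null enterocytes (SD, n = 4 and 5; limma adjusted p = 0.676). Of 7 tested interferon gamma induced genes, Ubd, a ubiquitin-like modifier, rose from 139 ± 143 to 796 ± 575 (log2 2.60, SE 0.65, limma adjusted p = 0.0395), higher in null on average but with overlap between the genotypes. Its call was lost in 9 of 18 alternative settings. The limma adjusted p was 0.0745 to 0.159 without WT 1, WT 2 or WT 3 and 0.0889 to 0.104 without null 1, null 4 or null 5, and DESeq2 gave 0.0658. Of 10 tested genes of class I presentation none passed by limma; 3 had an unadjusted p under 0.05, all higher in null, edgeR called 0 and DESeq2 called 1. H2-D1, a class I heavy chain, had the smallest p among them and was at 1589 ± 61.6 and 2453 ± 479 (limma adjusted p = 0.0531).

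**Figure D2:**
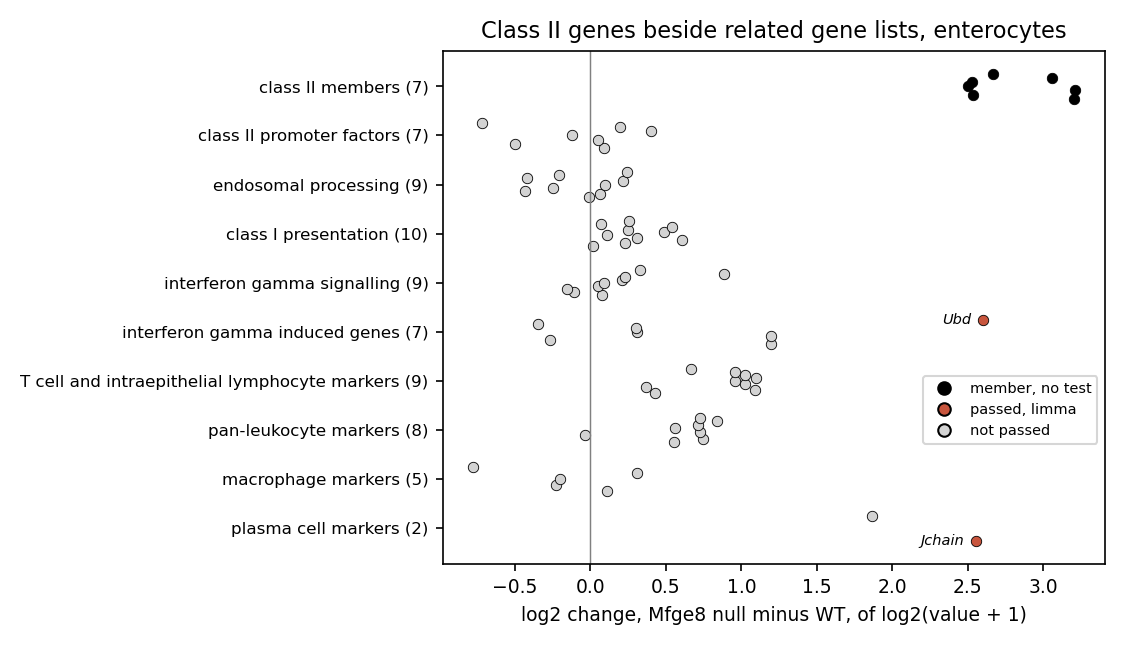
Log2 change (Mfge8 null minus WT, of log2(value + 1)) of each tested gene in 10 lists, with the number of genes in brackets; black points are the 7 class II genes, red points passed by limma and grey points did not. The class II genes lie at 2.50 to 3.21, and Ubd (2.60) and Jchain (2.55) are the named genes beside them.

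Along chromosome 17 the class II genes are interleaved with other genes. Of 13 other annotated genes with rows in the stretch from Col11a2 to Btnl2, 6 were tested, and none passed by limma, edgeR or DESeq2. Limma passed 3.21% of all genes, so none of 6 passing does not show that they were unchanged. An unadjusted limma p under 0.05 was found for 2 of the 6. Their log2 changes were 0.02 to 0.54. Psmb9, Tap1, Psmb8 and Tap2, which make and import class I peptides, lie between H2-DMb1 and H2-Ab1, and Tap1 was at 80.7 ± 16.01 in WT and 122 ± 42.4 in null enterocytes (SD, n = 4 and 5; limma adjusted p = 0.274). Btnl2, a butyrophilin-like gene beyond H2-Ea-ps, was at 163 ± 32.8 and 169 ± 41.6 (limma adjusted p = 0.962).

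**Figure D3:**
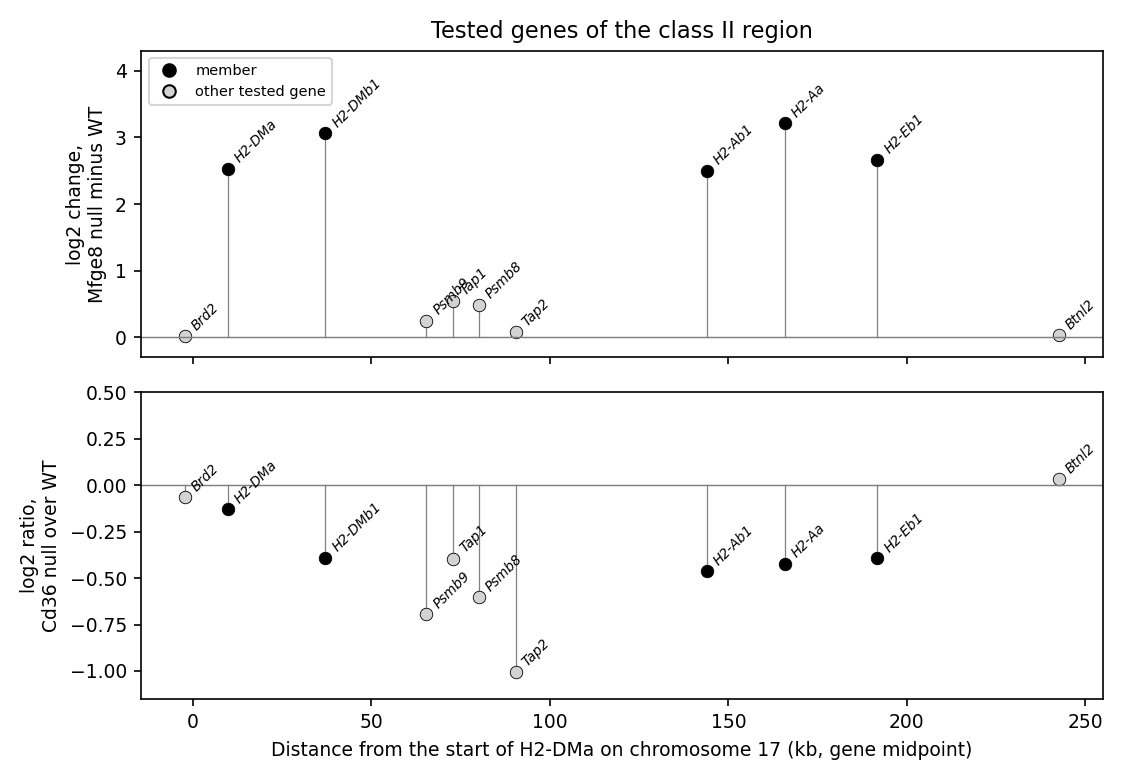
Change of each tested gene of the class II region against the distance of its midpoint from the start of H2-DMa (kb), for Mfge8 null minus WT enterocytes (top, log2 change) and Cd36 null over WT intestine (bottom, log2 ratio); black points are class II genes, grey points other tested genes. In the top panel the class II genes stand at 2.50 to 3.21 and the others at 0.02 to 0.54, and in the bottom panel Tap2, Psmb9 and Psmb8 lie below the class II genes.

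Markers of leukocytes, some of which carry class II molecules, were measured in the same libraries. In bulk libraries fewer cells of a type and less RNA per cell cannot be told apart. Of 31 tested marker genes of 7 leukocyte lists, 1 passed by limma, against 3.21% of all genes: Jchain, which links the units of secreted IgA and IgM, rose from 58.5 ± 43.1 to 294 ± 126 (log2 2.55, SE 0.43, limma adjusted p = 0.00331). A further 14 had an unadjusted p under 0.05, and all 15 were higher in null. The share of all genes at that cut-off is not given here, so this count is not read as an excess. The summed level of 8 pan-leukocyte markers was 195, 321, 216 and 479.5 in WT libraries 1 to 4 and 603, 296, 339, 444 and 715 in null libraries 1 to 5, so the genotypes overlapped. None of these 8 passed by limma, and 5 had an unadjusted p under 0.05, all higher; edgeR and DESeq2 called 0. The class II sums were 329.7, 849, 487 and 916 in WT libraries 1 to 4, in the same order as their pan-leukocyte sums, and 3792, 5488, 4216, 3514 and 5256 in null libraries 1 to 5. Among null libraries the orders differed: null 5 had the highest pan-leukocyte sum and the second highest class II sum, and null 2 had the lowest pan-leukocyte sum and the highest class II sum.

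By cell type, the 12 T cell and intraepithelial lymphocyte markers with rows summed to 1141 to 3396 in WT and 3155 to 7389 in null enterocytes, mostly through Gzma, a granzyme, at 2086 ± 828 and 4112 ± 1488 (SD, n = 4 and 5; limma adjusted p = 0.0843). None of the 9 tested passed by limma, which passed 3.21% of all genes. Of these 9, 6 had an unadjusted p under 0.05, edgeR called 0 and DESeq2 called 3. The 11 macrophage markers summed to 401 to 454 in WT and 427 to 571 in null libraries, and the complement gene C1qa among them was at 21.0 ± 5.23 and 24.8 ± 11.99. The 9 dendritic cell markers summed to 14.0 to 22.9 and 14.25 to 33.3, with Clec9a at 0 in all 9 enterocyte libraries. Itgax, the integrin chain CD11c and the only one of them tested, was at 8.39 ± 4.19 in WT and 14.5 ± 6.61 in null enterocytes (SD, n = 4 and 5; log2 0.76, limma adjusted p = 0.391). The 9 B cell markers summed to 4.68 to 38.4 and 1.07 to 46.0, with the defining genes Cd79a and Pax5 at 0 in all 16 libraries. The 4 plasma cell markers summed to 15.2 to 120.1 and 199.5 to 479.8, and the 7 innate lymphoid and NK cell markers to 106.6 to 199.5 and 155.7 to 258.6. H2-Aa per Ptprc, the pan-leukocyte antigen CD45, was 3.09 to 5.22 in WT and 9.23 to 46.97 in null enterocytes. H2-Aa was among the genes chosen from this comparison, and the part of leukocytes in the class II levels was not tested.

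**Figure D4:**
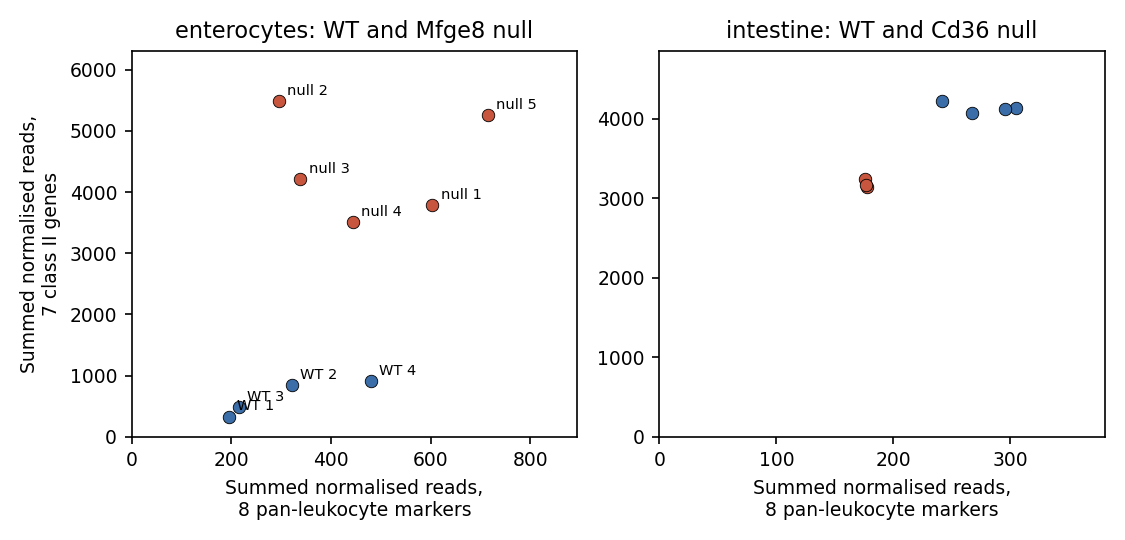
Summed normalised reads of the 7 class II genes against those of 8 pan-leukocyte markers, 1 point per library, in the enterocyte table (left, WT blue and Mfge8 null red, labelled by replicate) and the intestine table (right, WT blue and Cd36 null red). In enterocytes the pan-leukocyte sums overlap, at 195 to 479.5 in WT and 296 to 715 in null. The class II sums were 329.7 to 916 in WT and 3514 to 5488 in null, but these genes were chosen from this comparison. In intestine both sums are lower in the null libraries.

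Markers of position along the intestine varied between libraries. By limma, which passed 3.21% of all genes, 1 of 5 ileal markers passed, Slc51b, a bile acid exporter subunit, which rose from 263 ± 10.01 to 466 ± 83.0 (adjusted p = 0.00615), and 1 of 4 proximal markers, the transcription factor gene Onecut2, which fell from 153 ± 23.9 to 72.9 ± 43.3 (limma adjusted p = 0.0401; SD, n = 4 and 5). Both were picked as the markers that passed. Fabp6, the ileal bile acid-binding protein, was at 43.3, 416, 397 and 8959 in WT libraries 1 to 4 and at 1204, 352, 2352, 34.3 and 6807 in null libraries 1 to 5. By Fabp6, the most ileal WT library (WT 4) was highest for 5 of the 7 class II genes among WT. The least ileal null library by Fabp6 (null 4) was lowest for 4 of them among null libraries. Null 2, with a Fabp6 level below that of WT 2, was highest for 5. Null 4, at a lower Fabp6 level than any WT library, had a class II sum of 3514 against 329.7 to 916 in WT. The class II genes were chosen from this comparison, and the markers did not all place null 4 alike. Its ileal marker sum was 1143 against 1157 to 9946 in WT, and its proximal marker sum was 3362 against 3189 to 7094. The proximal marker Lct was at 2078 in null 4 against 2134 to 5641 in WT, and Slc51b at 358 against 254 to 277. The part of position in the class II levels was not tested.

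Among the 5 tested genes outside the list whose profile over the 9 enterocyte libraries lay closest to the mean profile of the 7 were AA467197, Hddc3, Gpx2 and Kcnj16. The measure was the root mean square difference of log2(value + 1), each gene centred on its own mean, and it ran from 0.12 (H2-Eb1) to 0.51 (H2-DMa) for the 7 genes themselves. AA467197 was closest at 0.38, with 199, 368, 202 and 323 normalised reads in WT and 1396, 1707, 2363, 1200.3 and 1110.5 in null libraries. Gpx2, a selenium-dependent peroxidase, stood at 0.52, with 404 ± 260 in WT and 3404 ± 548 in null libraries. Hddc3 and Kcnj16 were lowly read, with null means of 19.2 and 12.8. Likeness of this kind follows largely from the difference between the genotypes and was not tested.

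The genes were picked from the enterocyte comparison, with earlier results of these data known. In the intestine libraries all 7 class II transcripts were at lower mean levels in Cd36 null than in WT. They stood at 72.5% to 91.4% of the WT level in CPM. The 7 genes together held 16305 of 3502320 reads in WT and 9941 of 2832098 in Cd36 null libraries, a ratio of 0.754 (exact 95% interval 0.735 to 0.773, which covers counting error only). The median ratio was 0.763, against 0.976 over the 9314 genes above the low-value filter. With 1 sample per genotype there is no test, and the difference is one between these preparations.

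H2-Aa was at 1176, 1279, 1146 and 1191 normalised reads in WT and at 889, 966 and 892 in Cd36 null intestine, a CPM ratio of 0.746 (interval 0.712 to 0.782). H2-Ab1 was at 1351, 1343, 1371 and 1374 in WT and at 1013, 1006 and 1000.02 in null, a ratio of 0.725 (0.694 to 0.758). Both I-A chains were therefore lower in every null library than in any WT library. H2-Eb1 was at 511 to 550.3 in WT and 403 to 416 in null, with a ratio of 0.761 (0.709 to 0.817). Cd74 was at 633 to 713 in WT and 508 to 548 in null, with a ratio of 0.767 (0.720 to 0.816). H2-DMb1 was at 147 to 168 and 112 to 133, with a ratio of 0.763 (0.669 to 0.869). The chains of class II, the invariant chain and the DM beta chain thus stood at similar shares of WT.

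H2-DMa and Ciita had the ratios nearest to 1. H2-DMa was at 195, 178, 191 and 202 in WT and at 177, 181 and 179 in null libraries, a ratio of 0.914 whose interval (0.818 to 1.02) included 1. Ciita was at 40.3, 36.1, 27.0 and 35.9 in WT and at 37.1, 23.4 and 31.5 in null libraries, a ratio of 0.869 (0.663 to 1.14). Both overlapped between the genotypes. A change of Ciita in proportion to its targets lay inside this counting interval, so at 138 and 97 reads it could not be told from none. The interval lay below 1 for 5 of the 7 genes, against 10.2% of all 9314 (8.02% above 1). Such intervals are narrower for genes with more reads, and these 5 had 611 to 5366 WT reads. The share of all genes was not matched for read number, here or for the other lists below, so the difference from it is not read as an excess. All null libraries lay below all WT libraries for 5 of the 7, against 7.91% of all genes (8.61% above). None of the 7 differed by 1.5-fold or more, against 10.9% of all genes, of which 6.91% were lower and 4.03% higher.

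**Figure D5:**
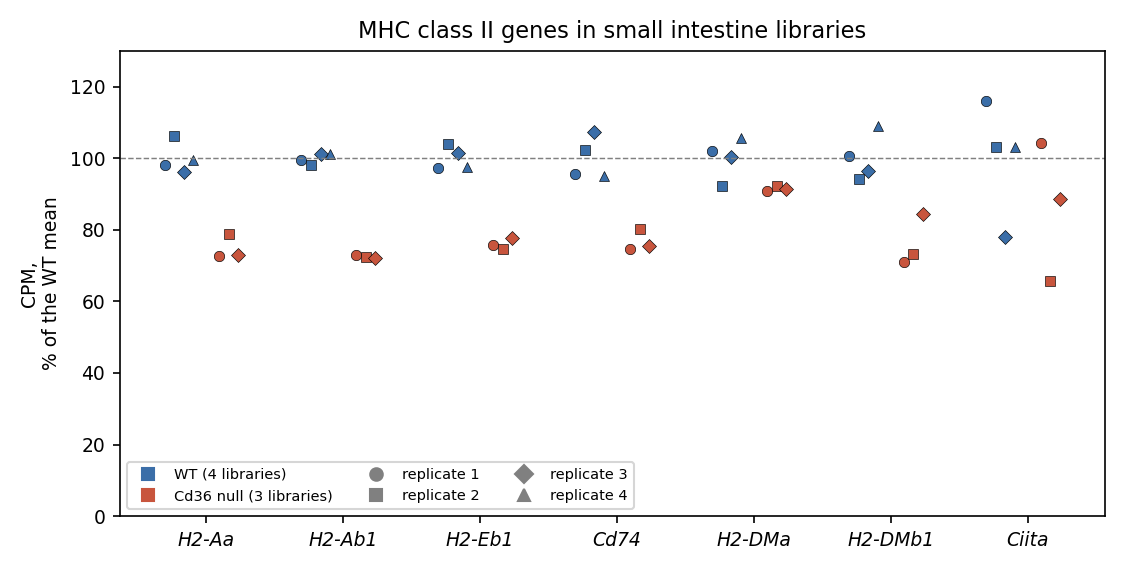
CPM of the 7 class II genes in each intestine library as a percentage of the WT mean of that gene, WT in blue and Cd36 null in red, with marker shapes for the replicate number and a dashed line at 100%. The null libraries of H2-Aa, H2-Ab1, H2-Eb1, Cd74 and H2-DMb1 lie below all WT libraries, and those of H2-DMa and Ciita overlap with WT.

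Leukocyte and class I genes were also lower in the Cd36 null preparation. The 8 pan-leukocyte markers summed to 242 to 304 in WT and 176 to 177 in null libraries, with a median ratio of 0.601, 6 of 8 intervals below 1 against 10.2% of all genes (8.02% above 1), and Ptprc at 0.506 (0.421 to 0.605). Of 9 T cell and intraepithelial lymphocyte markers 6 had intervals below 1, with a median ratio of 0.721. Of 11 class I presentation genes 9 did, with a median of 0.828, and Tap2, a peptide transporter subunit encoded among the class II genes, was at 0.497 (0.417 to 0.591). H2-Aa per Ptprc was 9.12 to 15.1 in WT and 15.5 to 17.4 in Cd36 null intestine, so Ptprc was lower by more than H2-Aa was. The ileal gene Fabp6 was at 0.243 of WT (0.209 to 0.281), and how far region or leukocytes account for the class II values was not tested.

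For the other class II pathway genes in Cd36 null intestine the intervals mostly included 1. None of 6 promoter factors had an interval below or above 1, and Rfx5 was at 0.955 (0.629 to 1.44). Of 9 endosomal processing genes 1 had an interval below 1 and 2 above; Ctss was at 1.08 (1.01 to 1.15). Of 9 interferon gamma signalling genes 2 had intervals below 1 and 4 above, with a median ratio of 0.99. Socs1 was at 1.60 (1.11 to 2.31), on the other side of 1 from Irf1 at 0.913 (0.858 to 0.971). Of 11 interferon gamma induced genes 5 had intervals below 1 and 1 above, against 10.2% and 8.02% of all genes. Their median ratio was 0.814, and Ubd among them was at 0.328 (0.297 to 0.362). The 14 genes of that list with rows summed to 990 to 1037 normalised reads in WT and 597 to 647 in Cd36 null libraries.

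In CPM of assigned reads the 7 genes summed to 174 to 525 in WT enterocytes, 1720.45 to 2797 in Mfge8 null enterocytes, 4585 to 4722 in WT intestine and 3472 to 3570.3 in Cd36 null intestine. Neighbours in this order did not overlap, but levels across the tables were not tested, since the tables come from different preparations and were normalised apart. Proportions among epithelial genes also differed between the tables, as with Krt8 per Vil1 at 0.763 to 1.44 in enterocytes and 0.0370 to 0.0441 in intestine. Within class II, Cd74 per H2-Ab1 was 0.461 to 0.545 in intestine and H2-DMb1 per H2-DMa was 0.633 to 0.832, both outside the ranges in enterocytes, 0.182 to 0.424 and 1.59 to 9.40.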

How the data were processed

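The authors deposited 1 table per experiment of a normalised signal, with whole read counts per gene divided by 1 size factor per library. Every value divided by the lowest value above 0 of its library gave a whole number (tolerance 1e-06, 100% of values), so reads were recovered; for WT 4 and null 3 of the enterocyte table the size factor lies so near 1 that this is less certain. The submitters' processing notes name mm10 as the build and, among the tools, DESeq2 (2.11.40), HTSeq (0.91), HISAT2 (2.1.0) and Trimmomatic (0.38.1). Library preparation used a kit module with molecular identifiers per the labels' protocols, but the strand option and the counting of identifiers are not given in the sources used here. Where reads are counted without identifiers, they are not independent molecules, so intervals cover counting error only.

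Enterocyte genes that reached 5 normalised reads in 4 or more libraries were tested with limma 3.58.1 (trend, 2-sided) on log2(value + 1) in R 4.3.3, with Benjamini-Hochberg adjustment over all 9432 genes and a threshold of 0.05. This scale understates the change of low genes. Counts at an unadjusted p under 0.05 are given without the share of all genes at that cut-off and are not read as an excess. In the intestine table, reads were summed per genotype for genes that reached 5 in 3 or more, and CPM ratios were given with exact 95% conditional binomial intervals (SciPy 1.17.1). Fits by edgeR 4.0.16 and DESeq2 1.42.0 on the recovered reads were alternatives, and the fits were tested on simulated data. Positions come from GENCODE M21 and promoters from RefSeq, both on GRCm38 (mm10). Members and lists were chosen with earlier results of these data known. Named genes were the 7 members, genes of the lists that passed or had a role named here, the most abundant markers, the 5 genes most like the members in profile, and tested genes of the chromosome 17 region; some genes that this covers are not reported here. Those named for a role without passing were chosen after their values were seen. The stromal list and the use of intervals as a call were also added after the values were seen.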

Additional observations from a re-analysis of the deposited data

Results flagged for a closer look

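One library was far from the others of its group in Ciita: WT 1 had 2.34 normalised reads (2 reads), against 6.24 to 6.95 (6 to 8 reads) in the other WT enterocyte libraries. Chance flags about 1 in 20 groups, and 18 groups were looked at, for the 7 class II genes, Ubd and Jchain in each enterocyte genotype.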

How the results depend on the processing

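All 7 class II genes kept their direction in Mfge8 null enterocytes over 18 alternative settings, with log2 changes of 1.95 to 3.48. The genes were chosen for being higher in this comparison, so the kept direction is description only. In 125 of 126 cases the value moved by less than the spread between libraries, the exception being Ciita with a pseudocount of 5. The count of all genes called, 303, was 116 without null 3 and null 5, the libraries that with WT 4 were highest in Fabp6, and 140 to 388 when 1 library was left out (140 without WT 1, 173 without WT 2, 185 without null 3, 199 without null 5). DESeq2 called 430 genes. Scaling to CPM, which shifted the median of all genes by -0.09, gave 110 higher and 212 lower against 149 and 154. The count of other class II pathway genes called was 0 in all 18 alternatives. The leukocyte marker count of 1 was 2 with a pseudocount of 5, 3 without a filter, 4 with DESeq2, 2 with a replicate block, 4 by edgeR without WT 4 and null 3 (added after seeing the data) and 1 to 6 with 1 library left out (6 without WT 4, 5 without null 2, 2 without null 3). The cause of these shifts was not tested. Replicate numbers are shared between the genotypes, but the deviations of same-numbered libraries correlated at -0.12, -0.07, 0.21 and 0.09, so the block was not taken as a pairing; it changed the number of all genes called to 229. No paired analysis was possible for the intestine table because its result comes from no test.

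In the intestine table, 1019 genes differed by 1.5-fold or more; 5292 did without a filter, where low genes enter, 294 by 2-fold, and 1007 to 1335 with 1 library left out. Calling by intervals gave 1699 and by libraries that do not overlap 1539, both added after seeing the data. The summed class II ratio was 0.748 to 0.758 with 1 library left out, and all 56 ratios of single genes over 8 alternatives stayed below 1. Depth limits Ciita most, with 2 to 8 reads per WT enterocyte library.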

Other observations

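AA467197, the gene closest in profile to the class II genes in enterocytes, did not follow them in the intestine table: it was at 405 to 489.8 normalised reads in WT and 713 to 764 in Cd36 null libraries, a CPM ratio of 1.59, while the summed class II ratio was 0.754. Ubd, which like the class II genes was higher on average in Mfge8 null enterocytes, was at 475 to 491 in WT and 153 to 175 in Cd36 null intestine, a ratio of 0.328 (exact 95% interval 0.297 to 0.362, counting error only). These values come from 1 preparation per genotype and have no replicate check.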
